A study of Mus musculus with 10 samples.

Results

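Steroid hormones act on the uterus through nuclear receptors, which bind DNA and control transcription once they hold their hormone, and through membrane receptors that signal from outside the nucleus. The levels of 8 such receptor genes were followed in the uterus of mice that overexpress a human estrogen-producing enzyme and of wild-type mice. The set holds the nuclear estrogen receptors Esr1 and Esr2, the membrane estrogen receptor Gper1, the progesterone receptor Pgr, the membrane progesterone receptor components Pgrmc1 and Pgrmc2, the glucocorticoid receptor Nr3c1 and the mineralocorticoid receptor Nr3c2. They were taken by name from a table of 29268 genes, and all 8 were found, each once. A filter on low counts left 16993 genes to test, among them 7 of the 8 receptors; Esr2 was too low to pass.

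Whole-tissue mRNA of the uterus was sequenced from 5 HSD17B1TG and 5 WT mice aged 4 months, 1 library from each animal. The mice of both groups were of the FVB/N strain. HSD17B1TG mice were heterozygous for a transgene that drives the cDNA of human HSD17B1 in all tissues from a chicken beta-actin promoter with a CMV enhancer. HSD17B1 is the enzyme that converts estrone, a weak estrogen, into estradiol. By the study's account HSD17B1TG females do not cycle, and the phase of the estrous cycle was not matched in WT mice, so that genotype and cycling cannot be told apart here. The mice are called TG1 to TG5 and WT1 to WT5 below, and values given as a series follow that order.

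Total counts per mouse lay between 14817228 and 23271988 and overlapped between the groups. Mitochondrial transcripts took 5.74%, 6.87% and 7.57% of them in TG1, TG4 and TG5 and between 1.94% and 3.37% in the other mice. The 10 most abundant genes took 6.97% to 12.5% in HSD17B1TG and 5.18% to 6.15% in WT mice, without overlap. Adipocyte markers, 6 in all, summed to 65.7 FPKM in TG4, 16.3 in WT2, 9.0 in TG2 and 3.53 in WT4, and to at most 0.409 in the others. The mouse annotation does not count the human transgene, and mouse Hsd17b1 was at 0.992 ± 0.291 FPKM (SD, n = 5) in HSD17B1TG and 0.918 ± 0.375 FPKM (SD, n = 5) in WT mice, so that this gene does not check the genotype. FPKM, fragments per kilobase of transcript scaled to sequencing depth, is a level per length and can be compared between genes. Marker genes of uterine epithelium, stroma, smooth muscle, endothelium and leucocytes were all present in the table and passed the filter. Of 7 ovarian and 5 oviduct markers in the table, 2 of each passed it, and the gonadal regulator Nr5a1 did not exceed 3 counts in any mouse.

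In the cycling uterus estradiol acts mainly through Esr1, drives proliferation of the epithelium and raises the level of Pgr. Progesterone acting through Pgr then halts this proliferation and prepares the stroma for implantation. Glucocorticoids act through Nr3c1, and Nr3c2 binds both aldosterone and glucocorticoids, for which reason cells that use it for aldosterone also make Hsd11b2, an enzyme that inactivates glucocorticoids.

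Among the 8 receptors Nr3c2 was the one that differed between the genotypes by the criteria used for the whole table, being 3.67-fold higher in HSD17B1TG mice (95% interval 2.15 to 6.26). A gene was called when edgeR's quasi-likelihood test gave an adjusted p under 0.05 over all genes tested, the fold change was over 2 and the mean FPKM was over 1 in either group. By these criteria 1 of 7 receptors was called higher, where 2.16% of all genes tested were, and 0 of 7 were called lower, where 2.08% of all genes were. At an unadjusted p under 0.05 edgeR had 1 receptor higher, where 14.7% of all genes were, and 2 lower, Pgrmc1 and Pgrmc2, where 11.4% were. Both DESeq2 and limma voom called 1 higher and 0 lower, against 5.42% and 3.87% of all genes by DESeq2 and 2.3% and 1.11% by limma voom. On the adjusted p alone 1 of 7 passed, against 6.16% of all genes tested. Nr3c2 was also the receptor whose HSD17B1TG mice all lay above all WT mice, a pattern shown by 4.04% of genes tested, while 0 of 8 receptors had all HSD17B1TG mice below all WT mice, as 2.65% of genes did. The fitted change was below 0 in the other 6 receptors tested. In whole tissue, fewer cells of a type and less RNA per cell cannot be told apart, which holds for every value here.

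**Figure D1:**
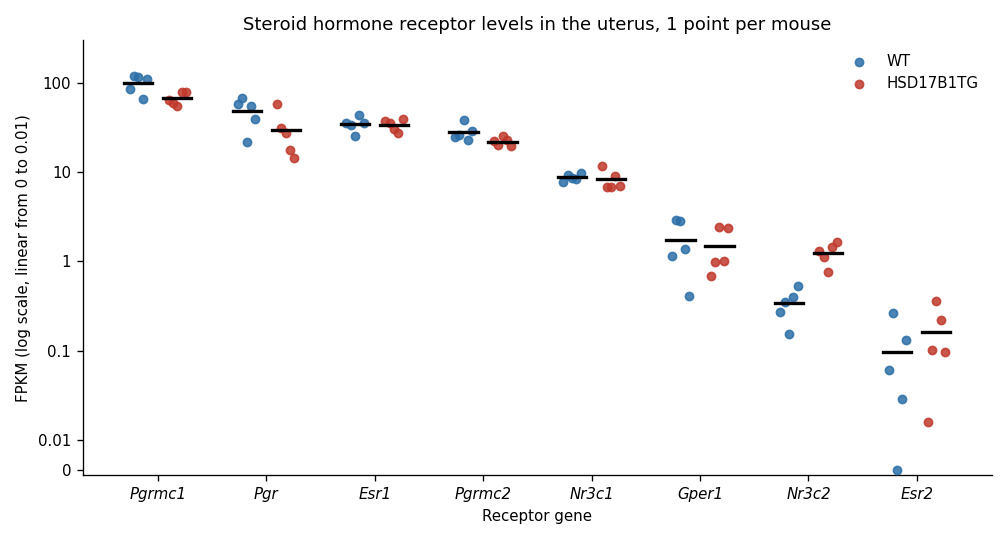
FPKM of the 8 receptor genes, with 1 point per mouse, WT in blue and HSD17B1TG in red, and a bar at the mean of each group. The axis is logarithmic above 0.01 FPKM and linear from 0 to 0.01, and the groups are separate for Nr3c2 alone.

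The levels of the receptors spanned from under 1 to about 100 FPKM and fell in nearly the same order in both groups. In WT mice Pgrmc1 was highest (100.1 ± 22.9 FPKM, SD, n = 5), followed by Pgr (48.2 ± 18.1), Esr1 (34.9 ± 6.50), Pgrmc2 (28.4 ± 6.02), Nr3c1 (8.74 ± 0.788), Gper1 (1.73 ± 1.11), Nr3c2 (0.339 ± 0.140) and Esr2 (0.0971 ± 0.106). In HSD17B1TG mice Pgrmc1 again came first (67.3 ± 11.6 FPKM, SD, n = 5), and Esr1 (33.9 ± 4.83) stood before Pgr (29.8 ± 17.4), Pgrmc2 (21.9 ± 2.19), Nr3c1 (8.27 ± 2.15), Gper1 (1.48 ± 0.824), Nr3c2 (1.25 ± 0.332) and Esr2 (0.160 ± 0.135).

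Several neighbours in this order were not separated within the mice. Pgr exceeded Esr1 in 4 of 5 WT mice, and Esr1 exceeded Pgr in 4 of 5 HSD17B1TG mice. Esr1 exceeded Pgrmc2 in 4 of 5 WT mice, and Pgr exceeded Pgrmc2 in 3 of 5 HSD17B1TG mice. Gper1 lay above Nr3c2 in 4 of 5 WT but 2 of 5 HSD17B1TG mice, whereas every other neighbour kept its place in all 5 mice of its group. Set against 14315 protein-coding genes tested, the WT mean of Pgrmc1 exceeded 97.6% of them, that of Pgr 94.2%, that of Esr1 91.4% and that of Pgrmc2 89.0%. Nr3c1 stood above 61.9%, Gper1 above 21.4%, Nr3c2 above 5.39% and Esr2 above 0.789% of these genes.

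**Figure D2:**
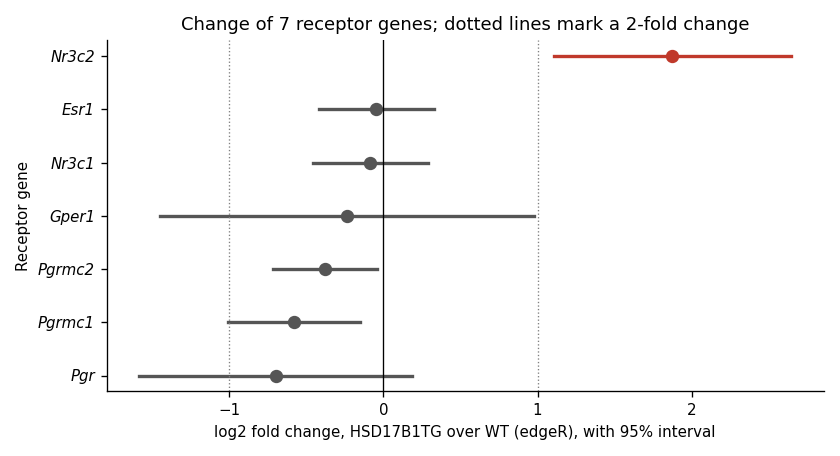
Log2 fold change of HSD17B1TG over WT from edgeR for the 7 receptors tested (points) with 95% intervals (lines), and dotted lines at a 2-fold change. The interval of Nr3c2, in red, runs from 1.10 to 2.65, and those of Pgrmc1 and Pgrmc2 lie below 0 but did not pass after adjustment over all genes in edgeR.

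Esr1, on chromosome 10 (chr10:4611593-5005614, plus strand, GRCm38), encodes the estrogen receptor alpha through which estradiol acts in most uterine cells. Its levels were 36.9, 35.3, 30.5, 27.4 and 39.2 FPKM in TG1 to TG5, and 35.5, 33.9, 25.7, 44.0 and 35.3 FPKM in WT1 to WT5. The groups overlapped throughout, with both the lowest and the highest value in WT mice. Its log2 fold change, HSD17B1TG over WT, was -0.05 (SE 0.17, 95% interval -0.42 to 0.33, adjusted p = 0.889 in edgeR), an interval that holds levels from 0.748-fold to 1.25-fold of WT. The exact permutation test of log2 CPM over the 10 mice gave p = 0.794 (two-sided).

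Esr2 (chr12:76120419-76177259, minus strand) encodes the estrogen receptor beta, known above all from ovarian granulosa cells. Its counts were 1, 6, 23, 12 and 5 in HSD17B1TG and 5, 17, 0, 2 and 9 in WT mice. The FPKM were 0.0159, 0.102, 0.363, 0.221 and 0.0954 against 0.0604, 0.266, 0, 0.0288 and 0.130. TG1, WT3 and WT4 lay at or under 3 counts, and the 0 of WT3 allows a level of up to 0.0552 FPKM at its depth, by counting error only. The groups overlapped, and a difference was not detectable at this depth (exact permutation test of log2 CPM, two-sided p = 0.413).

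Gper1 (chr5:139423151-139427800, plus strand), a membrane receptor coupled to G proteins that binds estradiol, varied widely within both groups. It was at 0.677, 0.974, 2.41, 1.00 and 2.33 FPKM in HSD17B1TG and 1.14, 2.90, 2.86, 1.36 and 0.404 FPKM in WT mice. The highest and lowest values were again in WT mice, a 7.19-fold range, against 3.56-fold among HSD17B1TG mice. Between genotypes the log2 fold change was -0.24 (SE 0.55, 95% interval -1.45 to 0.98, adjusted p = 0.823 in edgeR), so the interval leaves more than a 2-fold fall possible. Another gene, 3110082I17Rik, overlaps Gper1 on the opposite strand but shares 0 exon bases with it.

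The progesterone receptor Pgr (chr9:8899833-8968611, plus strand) had the widest spread among the highly expressed receptors. Its levels were 58.5, 30.9, 27.5, 17.9 and 14.3 FPKM in TG1 to TG5 and 57.1, 68.0, 21.5, 55.3 and 39.2 FPKM in WT1 to WT5. TG1 lay among the high WT mice, WT3 lay among the HSD17B1TG mice, and TG4 and TG5 lay below every WT mouse. The log2 fold change was -0.70 (SE 0.40, 95% interval -1.59 to 0.19, adjusted p = 0.298 in edgeR), and the exact permutation test gave p = 0.143 (two-sided). The interval reaches from 0.333-fold to 1.14-fold of WT, so a fall by more than 2-fold and no fall are both within it.

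The mice with high or low Pgr differed in their marker genes, and not in 1 way. TG1, with the highest Pgr of its group, had the lowest epithelial markers of that group (mean deviation of log2 CPM from the average of all mice, -0.87) and the highest stromal (0.60) and smooth muscle (1.96) markers. WT2, with the highest Pgr of all mice, had the lowest stromal markers of its group (0.0066) and low smooth muscle markers (-1.80). WT3, with the lowest Pgr of its group, had the lowest level of the estrogen-induced genes described below (-3.30) and the highest level of the progesterone-induced ones (1.66). Taken relative to the mean log2 CPM of 10 stromal markers in the same mouse, Pgr differed by -0.12 between the genotypes, with 1 of 5 HSD17B1TG mice below all WT mice. Relative to 11 epithelial markers it differed by -1.94, with 4 of 5 HSD17B1TG mice below and 1 above all WT mice. The difference in Pgr was -1.76 relative to smooth muscle, -0.04 relative to endothelial and -0.42 relative to leucocyte markers. What part the make-up of the tissue had in the level of Pgr was not tested.

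The genes whose deviations from their own mean over the 10 mice came closest to those of Pgr were Klhl32, the Wnt target Axin2, the collagens Col6a1 and Col4a4, and the nonmuscle myosin Myh10. Their root mean square difference from Pgr lay between 0.219 and 0.351 on the log2 scale, against a median of 0.869 over 14356 genes compared. For Esr1 the nearest genes were Mtmr1, Nemf, Zcchc10 and Snap23, at 0.121 to 0.147 (median of all genes 0.487), and for Nr3c1 they were Ubr1, Rcan3, Ankrd40, Klc1 and Foxj3, at 0.0747 to 0.111 (median 0.485). Esr1 and Nr3c1 themselves moved little, by a root mean square of 0.218 and 0.243, so that genes of steady level lie near them.

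Pgrmc1 and Pgrmc2 encode heme-binding membrane proteins to which fast, non-genomic actions of progesterone have been ascribed. Pgrmc1 (chrX:36598206-36606079, plus strand) was at 64.1, 59.1, 54.3, 79.2 and 79.7 FPKM in HSD17B1TG mice and at 86.2, 119.9, 116.1, 66.6 and 111.7 FPKM in WT mice. TG1, TG2 and TG3 lay below every WT mouse, and WT4 lay within the range of HSD17B1TG mice. Its log2 fold change was -0.58 (SE 0.19, 95% interval -1.01 to -0.15), which did not pass over all genes (adjusted p = 0.0904 in edgeR), and the exact permutation test of this gene by itself gave p = 0.0317 (two-sided). Its adjusted p was under 0.05 by DESeq2 (0.0399), with total counts in place of TMM factors in edgeR (0.0469) and in edgeR without WT4 (0.0251), each time with a change of less than 2-fold.

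Pgrmc2 (chr3:41066326-41083046, minus strand) was at 22.3, 20.0, 25.0, 22.6 and 19.6 FPKM in HSD17B1TG and 25.0, 26.3, 38.3, 23.0 and 29.2 FPKM in WT mice. TG1, TG2, TG4 and TG5 lay below every WT mouse, and TG3 lay within the WT range. Its log2 fold change was -0.38 (SE 0.15, 95% interval -0.72 to -0.04, adjusted p = 0.146 in edgeR), and the exact permutation test gave p = 0.0159 (two-sided). These permutation tests, of which 8 were made, are not adjusted, and 0.00794 is the smallest p that 5 against 5 mice allow. Relative to stromal markers of the same mouse, Pgrmc1 differed by 0.09 and Pgrmc2 by 0.29, and relative to epithelial markers by -1.72 and -1.52, on the log2 scale. Their differences were -1.54 and -1.34 relative to smooth muscle, 0.18 and 0.38 relative to endothelial, and -0.21 and -0.01 relative to leucocyte markers. The part of tissue make-up in these values was not tested.

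The glucocorticoid receptor Nr3c1 had nearly the same mean in both groups but a wider spread in HSD17B1TG mice. It was at 11.7, 6.87, 6.80, 9.02 and 6.92 FPKM in TG1 to TG5 and 7.83, 9.16, 8.50, 8.36 and 9.87 FPKM in WT1 to WT5. TG2, TG3 and TG5 lay below and TG1 above every WT mouse, and the coefficient of variation was 26.0% against 9.02% in WT, a difference in spread that was not tested. Between genotypes the log2 fold change was -0.09 (edgeR, SE 0.17, 95% interval -0.46 to 0.29, adjusted p = 0.790 in edgeR), and the exact permutation test gave p = 0.5 (two-sided).

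The mineralocorticoid receptor Nr3c2 (chr8:76899442-77245012, plus strand) was low in WT mice and higher in all 5 HSD17B1TG mice. Its levels were 1.32, 1.12, 0.763, 1.43 and 1.64 FPKM in TG1 to TG5 and 0.270, 0.350, 0.153, 0.396 and 0.528 FPKM in WT1 to WT5, from 93 to 165 and 16 to 70 counts per mouse. The lowest HSD17B1TG mouse, TG3, lay above the highest WT mouse, WT5, and the mean of 1.25 FPKM in HSD17B1TG mice was just over the minimum of 1. The log2 fold change was 1.88 (SE 0.35, 95% interval 1.10 to 2.65, adjusted p = 0.0227 in edgeR), and the exact permutation test gave p = 0.00794 (two-sided), the smallest it can give. The adjusted p rose above 0.05 without TG2 (0.0542), TG4 (0.0550), TG5 (0.0569), WT1 (0.0517) or WT2 (0.0604), with log2 fold changes of 1.91, 1.82, 1.76, 1.77 and 1.86. TG1, TG4 and TG5, the mice with the highest Nr3c2, were also those with the highest share of mitochondrial transcripts, which was 1.94% in TG2 and 2.49% in TG3. Adipocyte markers summed to 0.341, 9.0, 0.0371, 65.7 and 0.409 FPKM in TG1 to TG5. The part of either in the level of Nr3c2 was not tested. The antisense gene Gm10649 shares 247 exon bases with Nr3c2, 3.82% of its exon length, but did not exceed 2 counts in any mouse.

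Relative to the marker genes of the same mouse, the difference in Nr3c2 varied with the cell type it was set against. On the log2 scale it was 2.54 relative to stromal, 2.62 relative to endothelial and 2.24 relative to leucocyte markers, with 5 of 5 HSD17B1TG mice above all WT mice each time. Set against epithelial markers the difference was 0.72, and against smooth muscle markers 0.90, with 1 of 5 HSD17B1TG mice above all WT mice in each. The marker levels themselves overlapped between the genotypes: the mean log2 CPM of 11 epithelial markers was 1.16 higher in HSD17B1TG mice (deviations from -0.87 to 1.37, against -1.29 to 0.05 in WT) and that of 10 smooth muscle markers 0.98 higher (-0.83 to 1.96, against -2.12 to 1.52). None of the epithelial markers was called in edgeR, although 8 of 11 were higher at an unadjusted p under 0.05 (14.7% of all genes), DESeq2 called 4 higher (5.42% of all genes) and limma voom 0. None of the smooth muscle markers was called, with 0 at an unadjusted p under 0.05 and 0 by DESeq2 or limma voom. Their median log2 fold change was 0.64, and 0.12 to 1.47 with 1 mouse left out. The 10 stromal markers were split, with 4 above and 6 below 0. Their median log2 fold change was -0.52, and -0.82 to -0.31 with 1 mouse left out. Pdgfra, Hoxa11 and Thy1 were called lower (2.08% of all genes), calls that held in 7, 4 and 2 of 10 fits with 1 mouse left out. Ogn (0.83), Lum (0.51), Fbln1 (0.37) and Ecm1 (0.34) had fold changes above 0 that were not called. The part of these marker levels in the level of Nr3c2 was not tested.

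The promoters of Nr3c2, the receptor that was called, and of Pgr, the classical target of Esr1 in the uterus, are shown for their letters around the start of transcription, as given by RefSeq for GRCm38.p6. Capitals mark matches, on either strand, to GGTCA, the core of an estrogen response element (TGACC on the other strand), and to GGGCGG, the GC box bound by Sp1 (CCGCCC on the other strand). The Nr3c2 window is chr8:76902080-76902379 and the Pgr window chr9:8899583-8899882, both 300 bases on the plus strand; the RefSeq start of Nr3c2 lies inside the gene as the table bounds it.
Nr3c2: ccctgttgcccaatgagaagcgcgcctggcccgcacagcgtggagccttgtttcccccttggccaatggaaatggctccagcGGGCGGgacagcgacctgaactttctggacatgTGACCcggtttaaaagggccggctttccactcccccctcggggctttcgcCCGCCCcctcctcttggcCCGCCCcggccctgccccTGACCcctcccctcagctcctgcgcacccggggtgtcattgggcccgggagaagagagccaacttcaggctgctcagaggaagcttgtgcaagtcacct
Pgr: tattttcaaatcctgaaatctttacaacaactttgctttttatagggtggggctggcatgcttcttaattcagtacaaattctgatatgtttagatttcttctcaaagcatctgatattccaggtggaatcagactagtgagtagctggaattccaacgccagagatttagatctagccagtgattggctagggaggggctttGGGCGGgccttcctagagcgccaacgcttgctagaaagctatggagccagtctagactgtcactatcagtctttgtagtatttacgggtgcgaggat

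The Nr3c2 window held 2 estrogen response element cores and 3 GC boxes, and the Pgr window held 1 GC box and no such core. The Nr3c2 cores began at -135 and -49 and its GC boxes at -168, -85 and -67, and the GC box of Pgr at -47, in bases from the start. RefSeq held such windows for 7 of the receptors, 8 windows in all since Esr1 had 2; Nr3c1 was not used. The core GGTCA lay in windows of 3 of these genes and a GC box in windows of 5. Over 32851 mouse promoters of that length GGTCA was found in 40.5% and GGGCGG in 35.7%, so that such matches are common. A palindrome of GGTCA and its reverse complement 3 bases apart, the full estrogen response element, lay in 0 of the 8 windows, and in 0.07% of all promoters. TGTTCT, the core for the corticoid and progesterone receptors, was found once, in Pgrmc1, and in 19.0% of all promoters, and its palindrome in 0 windows and 0.00913% of all promoters.

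Ratios of receptors were taken within each mouse, and 6 were tested. The ratio of Nr3c2 to Nr3c1, the receptors that share glucocorticoids as ligands, was 0.151 in HSD17B1TG and 0.0365 in WT mice (geometric means), a 4.14-fold difference. On the log2 scale it was -2.73 ± 0.447 against -4.78 ± 0.597 (SD, n = 5 each), higher in 5 of 5 HSD17B1TG mice than in any WT mouse (exact permutation test, two-sided p = 0.00794, adjusted over the 6 ratios 0.0476). With 1 FPKM added to both receptors in place of 0.5 counts, the log2 difference was 0.84. In WT mice Nr3c1 exceeded Nr3c2 by 27.4-fold per length, and in HSD17B1TG mice by 6.63-fold.

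The other 5 ratios did not pass. Pgr to Esr1 was 0.784 in HSD17B1TG and 1.30 in WT mice, a log2 difference of -0.73 (exact permutation test, adjusted p = 0.333), with TG4 and TG5 below all WT mice. Without TG1 this difference was -0.99 (exact permutation test, unadjusted p = 0.0317). Nr3c1 to Pgr differed by 0.66 (exact permutation test, adjusted p = 0.333), Pgrmc2 to Pgrmc1 by 0.20 (0.438, and by 0.08 to 0.31 with 1 mouse left out), Esr2 to Esr1 by 1.00 (0.438) and Gper1 to Esr1 by -0.06 (0.937). At 0, 1 and 2 counts of Esr2 in WT3, TG1 and WT4 its ratio rests on the 0.5 counts added and on depth: the difference was 0.11 with 1 FPKM added to both receptors and 0.43 to 1.62 with 1 mouse left out. In level the ratio of Pgrmc2 to Pgrmc1 was 0.328 in HSD17B1TG and 0.285 in WT mice.

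**Figure D3:**
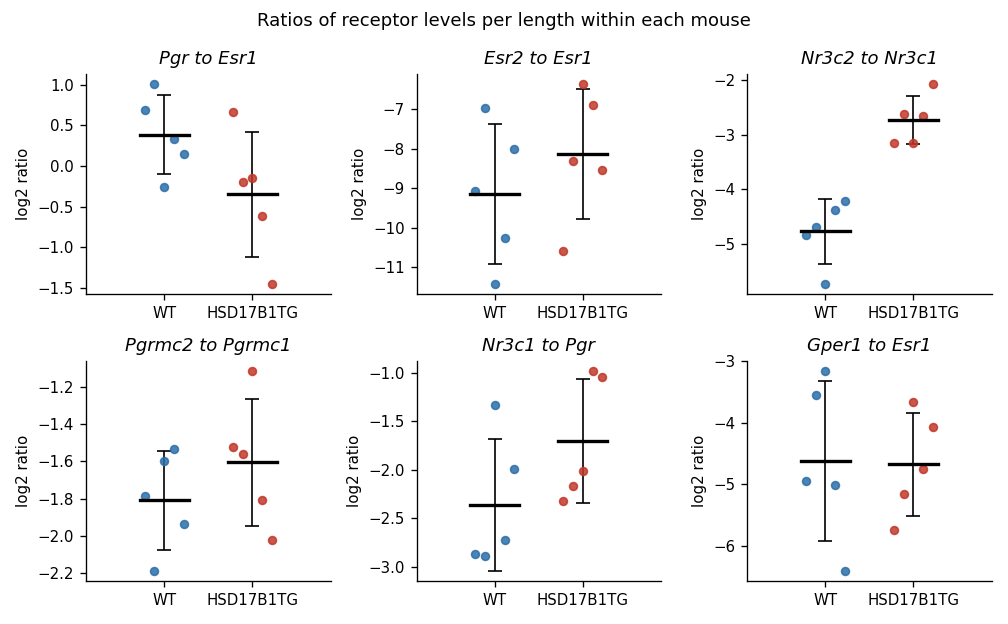
Log2 ratios of receptor levels per length within each mouse, with 1 point per mouse, the mean and the SD of each group. The Nr3c2 to Nr3c1 ratio of all HSD17B1TG mice, from -3.15 to -2.08, lies above that of all WT mice, from -5.75 to -4.21, and the other 5 ratios overlap.

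Among enzymes that make or remove receptor ligands, Hsd11b2, which inactivates glucocorticoids and so keeps them from Nr3c2, was called lower in HSD17B1TG mice. Its levels were 44.2, 123.0, 47.8, 7.89 and 21.6 FPKM in TG1 to TG5 and 706, 448, 307, 236 and 455 FPKM in WT1 to WT5. Every HSD17B1TG mouse lay below every WT mouse, with a ratio of mean FPKM of 8.80, and the log2 fold change was -3.14 (SE 0.64, adjusted p = 0.0268 in edgeR). Nr3c2 and Hsd11b2 thus differed in opposite directions in every HSD17B1TG mouse from all WT mice. The call of Hsd11b2 was lost without TG5 (adjusted p = 0.0668), WT1 (0.0523), WT2 (0.0624), WT3 (0.0534) or WT5 (0.0660), its log2 fold change staying between -3.83 and -2.86 over the 10 fits with 1 mouse left out. It was the 1 called lower of 9 ligand enzymes tested (2.08% of all genes), and the median log2 fold change of these 9 was -0.13, or 0.52 without WT5, against 0.00 over all genes. None was called higher by edgeR, with 2 at an unadjusted p under 0.05 (14.7% of all genes), and 1 was called higher by DESeq2 (5.42%) and 1 by limma voom (2.3%).

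Of 16 genes known to be induced by corticoids, Fkbp5 was called lower (2.08% of all genes) and 0 were called higher (2.16%). At an unadjusted p under 0.05 edgeR had 2 higher and 4 lower, against 14.7% and 11.4% of all genes, and DESeq2 (5.42% of all genes) and limma voom (2.3%) each called 1 higher. The median log2 fold change of the 16 was -0.09, with 7 above and 9 below 0, and it ranged from -0.27 to 0.03 with 1 mouse left out. Fkbp5 encodes a cochaperone that lowers the affinity of Nr3c1 for its hormone and is itself induced by glucocorticoids, mineralocorticoids and progestins. Fkbp5 also stands in the lists of progesterone-induced genes and of chaperones below, so that its call counts in each of them. It was at 0.997, 1.17, 1.56, 0.983 and 0.760 FPKM in HSD17B1TG and 4.39, 2.27, 5.04, 3.24 and 2.14 FPKM in WT mice, so that the groups did not overlap. The log2 fold change was -1.65 (SE 0.28, adjusted p = 0.0199 in edgeR), and the call was lost without TG2 (adjusted p = 0.0542), TG4 (0.0531) or TG5 (0.0530).

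Other corticoid-induced genes, chosen for mention after their values were seen, went different ways. Sgk1, a kinase induced through both corticoid receptors, was at 32.7, 14.7, 11.7, 28.1 and 33.8 FPKM in HSD17B1TG mice and at 15.6, 12.3, 10.7, 14.5 and 8.56 FPKM in WT mice (log2 fold change 0.97, SE 0.31, adjusted p = 0.0780 in edgeR). TG1, TG4 and TG5, the mice with the highest share of mitochondrial transcripts (5.74% to 7.57%), lay above all WT mice and TG2 and TG3 within their range; the part of that share was not tested. The clock gene Per1 was at 5.99 ± 1.27 against 11.7 ± 3.16 FPKM (SD, n = 5 each), below in all HSD17B1TG mice, and its adjusted p of 0.0342 in edgeR passed while its log2 fold change of -0.98 missed the 2-fold criterion. Nfkbia, the inhibitor of NF-kappa-B, was at 125 ± 42.6 against 57.1 ± 24.2 FPKM (SD, n = 5 each), above in all HSD17B1TG mice (log2 fold change 1.13, adjusted p = 0.0529 in edgeR).

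**Figure D4:**
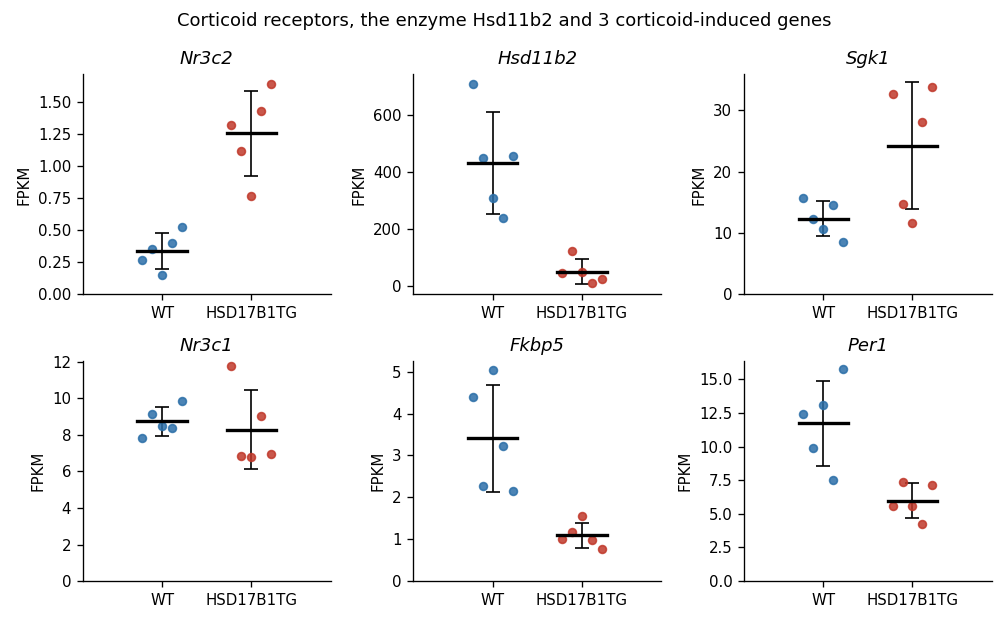
FPKM per mouse of both corticoid receptors, the enzyme Hsd11b2 and the corticoid-induced genes Sgk1, Fkbp5 and Per1, with the mean and the SD of each group. HSD17B1TG mice lie above all WT mice for Nr3c2 and below them for Hsd11b2, Fkbp5 and Per1.

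Of 21 genes known to be induced by progesterone, 11 were called lower in HSD17B1TG mice, 52.4% against 2.08% of all genes tested, and 0 were called higher. This list, like the others here, was chosen with earlier results of these data known, so that its share is not independent evidence. The list's median log2 fold change was -2.00, with 19 of 21 below 0. At an unadjusted p under 0.05 edgeR had 15 lower and 0 higher, against 11.4% and 14.7% of all genes. DESeq2 called 11 lower (3.87% of all genes) and 0 higher (5.42%), and limma voom 5 (1.11%) and 0 (2.3%). Il13ra2, a decoy receptor for interleukin 13, fell from 7.41 ± 6.91 to 0.0538 ± 0.0808 FPKM (SD, n = 5 each; log2 fold change -7.09, SE 0.95, adjusted p = 0.0149 in edgeR), with 0 to 0.197 FPKM in HSD17B1TG mice and at least 2.61 in WT mice. Hand2, the stromal transcription factor that restrains growth signals to the epithelium, fell from 22.2 ± 9.47 to 5.60 ± 1.62 FPKM (log2 fold change -2.00, SE 0.33, adjusted p = 0.0177 in edgeR, and 0.0514 without TG5). Of the genes of hedgehog signalling in the list, picked out after their values were seen, the ligand Ihh (log2 fold change -5.28, adjusted p = 0.0498 in edgeR), the receptor Ptch1 (-2.05) and the effector Gli1 (-4.54) were called lower, and the stromal target Nr2f2 (-0.76, adjusted p = 0.0814) was not.

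The progesterone-induced genes separated the groups where Pgr did not. Their mean log2 CPM deviated by -1.30 to -0.65 in HSD17B1TG mice and by -0.30 to 1.66 in WT mice, with WT4 nearest to the HSD17B1TG mice. WT4 had the median WT level of Pgr, 55.3 FPKM, and WT3 had the lowest WT level of Pgr and the highest level of these genes. By the study's account serum progesterone at this age was lower in HSD17B1TG than in WT mice, and its part in these levels was not tested. The count of genes called lower fell from 11 to 2 without TG2, 2 without TG4, 1 without TG5, 6 without WT1, 3 without WT2, 4 without WT3 and 3 without WT5. The list shares Fkbp5 with the chaperones and 3 genes with the corticoid-induced list, Fkbp5 among them. Thus 1 of the 11 calls is the Fkbp5 call described above. The list also shares Hoxa11 with the stromal markers, of which 3 of 10 were called lower (2.08% of all genes) and 4 of 10 lay above 0. Whether the amount of stroma took part in these values was not tested.

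Of 20 genes induced by estrogen in the mouse uterus 3 were called higher, the cornified envelope genes Sprr2d and Sprr2b and the secreted iron-binding protein Ltf, and 0 lower, against 2.16% of all genes called higher. Ltf was at 880, 4583, 3396, 1686 and 4541 FPKM in HSD17B1TG and 287, 167, 8.43, 401 and 38.4 FPKM in WT mice, without overlap (log2 fold change 4.07, SE 0.94, adjusted p = 0.0374 in edgeR). Sprr2d had a log2 fold change of 5.78 (SE 1.20) and Sprr2b of 5.23 (SE 1.08), each with an adjusted p of 0.0279 in edgeR, and limma voom did not call Sprr2d (adjusted p = 0.0669); they belong to a family of near-identical genes whose reads can be split among copies. The median of the list was 2.01, with 16 of 20 above 0, 11 higher and 2 lower at an unadjusted p under 0.05 (14.7% and 11.4% of all genes). The 4 below 0, named after their values were seen, were Aqp8 (log2 fold change -2.58), Igf1 (-1.44), Sprr2g of the same family (-1.24) and Ramp3 (-1.21). DESeq2 called 11 higher (5.42% of all genes) and limma voom 5 (2.3%), and 0 were called lower by either. WT mice spread from -3.30 to 0.76 in the mean level of these genes and HSD17B1TG mice from 0.29 to 1.55, and Esr1 lay between 25.7 and 44.0 FPKM in the same WT mice. The count called higher was 10 without WT4, 1 without TG2 and 0 without TG4, TG5, WT1, WT2, WT3 or WT5. For the epithelial markers described above the median was 1.24, and 8 of 11 were higher at an unadjusted p under 0.05 and 4 called higher by DESeq2; their part in these values was not tested. This list too was chosen with earlier results of these data known. Its members Klf4 (log2 fold change 1.51, adjusted p = 0.104 in edgeR) and Elf3 (2.37, adjusted p = 0.0804) were not called. Both were picked out by the study on these samples and are not independent evidence of the list's direction. The study also reported both as higher by RT-qPCR in a larger number of mice.

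**Figure D5:**
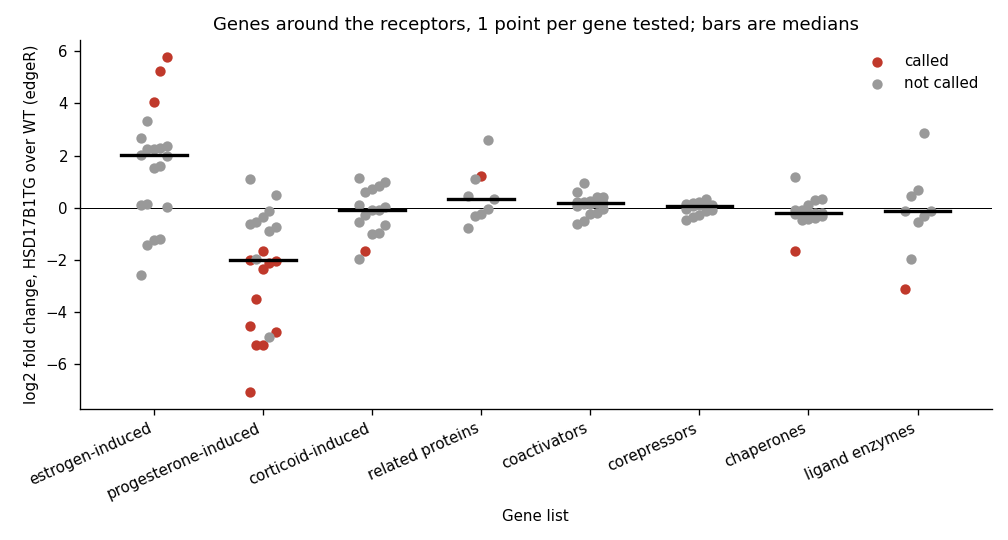
Log2 fold change of HSD17B1TG over WT from edgeR, with 1 point per gene tested in 8 lists around the receptors, called genes in red, and bars at the median of each list. The medians of the estrogen-induced (2.01) and progesterone-induced (-2.00) genes stand away from 0, and those of coregulators and chaperones lie between -0.22 and 0.17.

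Coactivators and corepressors are the proteins through which a receptor on DNA raises or lowers transcription. Of 17 coactivators 0 were called, with 2 higher and 3 lower at an unadjusted p under 0.05 (14.7% and 11.4% of all genes) and 0 by DESeq2 or limma voom, and their median log2 fold change was 0.17. Ncoa1, which binds Esr1 and Pgr once they hold hormone, was at 3.77 ± 0.115 FPKM in HSD17B1TG and 5.39 ± 0.741 FPKM in WT mice (SD, n = 5 each), lower in all HSD17B1TG mice. Its adjusted p passed in edgeR (0.0368) but its log2 fold change of -0.52 (SE 0.12) was short of 2-fold. The adjusted p was 0.0525 with no filter on low counts, and above 0.05 without TG2 (0.0855), TG4 (0.0738), TG5 (0.0817), WT1 (0.0686), WT2 (0.0756), WT3 (0.0791) or WT5 (0.0736). Ncoa3 was at 11.1 ± 0.765 against 8.27 ± 1.35 FPKM (log2 fold change 0.42, adjusted p = 0.0797 in edgeR).

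Of 14 corepressors 0 were called, with 0 higher and 2 lower at an unadjusted p under 0.05 (14.7% and 11.4% of all genes) and 0 by DESeq2 or limma voom, and the median was 0.08. Those with the smallest p in each direction were Safb2, a repressor of Esr1 (log2 fold change 0.22, adjusted p = 0.306 in edgeR), and Tbl1x of the nuclear corepressor complex (-0.48, adjusted p = 0.0836). Of 16 chaperones and immunophilins of the receptor complex, Fkbp5 described above was called lower (2.08% of all genes) and 0 higher. At an unadjusted p under 0.05 edgeR had 1 higher and 2 lower (14.7% and 11.4% of all genes), and 1 was called higher by DESeq2 (5.42%) and 0 by limma voom. The median of this list was -0.22, with 12 of 16 below 0.

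Among 9 related proteins tested, which were 5 membrane progestin receptors of the Paqr family, the Pgrmc relatives Nenf and Cyb5d2 and the orphan nuclear receptors Esrra and Esrrb, the estrogen-related receptor Esrra, an orphan receptor that regulates mitochondrial genes and does not bind estradiol, was called higher (2.16% of all genes). It was at 27.7, 39.8, 35.7, 30.6 and 51.9 FPKM in HSD17B1TG and 18.4, 13.4, 13.4, 22.6 and 12.3 FPKM in WT mice, without overlap. In edgeR the log2 fold change was 1.21 (SE 0.22, adjusted p = 0.0219), and the call was lost without TG2 (adjusted p = 0.0556), TG5 (0.0514), WT2 (0.0593), WT3 (0.0552) or WT5 (0.0585). At an unadjusted p under 0.05 edgeR had 2 of the 9 higher (14.7% of all genes), and DESeq2 (5.42%) and limma voom (2.3%) each called 1. The other was Esrrb, named after its values were seen, whose log2 fold change of 2.61 passed the adjusted p (0.0440 in edgeR) with a mean under 1 FPKM in both groups. None was called lower, with 0 at an unadjusted p under 0.05 and 0 by DESeq2 or limma voom. The median of the 9 was 0.34, and 0.13 without TG4, 0.16 without TG1, 0.21 without WT1 or 0.19 without WT2. Esrra, at 16.0 ± 4.37 FPKM in WT mice, thus lay between Pgrmc2 and Nr3c1 in level, and above Pgr and Esr1 in the mean of HSD17B1TG mice at 37.1 ± 9.44 FPKM (SD, n = 5 each).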

How the data were processed

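Whole uterus RNA of 10 mice was sequenced, 5 per genotype, and samples were grouped by their labels. The authors mapped paired-end reads with HISAT2 2.0.5 to GRCm38 and counted them over genes of Ensembl release 94. How strand was treated, and by which counting program, is not given in the sources used here. The deposited table holds raw counts, a signal that is the count divided by a size factor per mouse, and FPKM, which the authors computed with the gene lengths of the table. Its columns from the authors' own comparison in DESeq2 (fold changes and p-values), a shorter table and 2 enrichment tables were not used.

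Differences between genotypes were fitted to the counts in edgeR 4.0.16 under R 4.3.3 (filterByExpr, TMM factors, glmQLFit and glmQLFTest, Benjamini-Hochberg adjustment over all genes tested), with intervals from the standard error and the degrees of freedom of the fit. Single receptors were compared by two-sided exact permutation tests of log2 CPM (prior count 2) over all 252 assignments of the mice, and ratios by the same test after 0.5 was added to each count. Alternatives were DESeq2 1.42.0, limma 3.58.1 with voom, other size factors and filters, and each mouse left out in turn. Depth, 14817228 to 23271988 counts, sets a limit of 3 counts, at most 0.202 CPM, for a count of 0, by counting error only.

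The receptors and the gene lists were chosen with earlier results of these data known. From each list the called genes were named, at most 3 in each direction, and from pathway lists with none called the gene with the smallest p in each direction; genes named outside this rule are said to be. For Pgr, Esr1 and Nr3c1 the 5 genes of nearest pattern were named, other than predicted genes and 1 whose symbol is not legible in the table. Of the genes nearest to Nr3c2 in pattern, 1 is not reported here.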

Additional observations from a re-analysis of the deposited data

How the results depend on the processing

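The number of genes called higher was 921 by DESeq2 and 568 by the adjusted p alone against 367, and ranged from 38 to 888 with 1 mouse left out. The number called lower was 657 by DESeq2 and 189 by limma voom against 354, and ranged from 27 to 666 with 1 mouse left out. The receptors called higher numbered 0 to 1 with 1 mouse left out, and 0 were called lower under any alternative. The log2 fold change of Nr3c2 stayed between 1.67 and 2.07 over all 17 alternatives, with adjusted p from 3.74e-06 to 0.0604, and between 1.67 and 2.07 with 1 mouse left out, where 5 of 10 fits lost the call. The other receptors moved with 1 mouse left out from -0.16 to 0.049 for Esr1 and from -0.51 to 0.016 for Gper1, both crossing 0, and over all alternatives from -1.09 to -0.52 for Pgr, -0.78 to -0.53 for Pgrmc1, -0.55 to -0.27 for Pgrmc2 and -0.26 to -0.03 for Nr3c1. The log2 difference of the Pgr to Esr1 ratio ranged from -0.99 to -0.46 and that of Gper1 to Esr1 from -0.51 to 0.30 with 1 mouse left out. The adjusted p of Pgrmc1 lay between 0.0251 and 0.185 over the alternatives. No paired analysis was possible because the labels carry no replicate numbers shared between the groups. With 5 mice per group and log2 standard errors of 0.15 to 0.55, the intervals of Pgr and Gper1 reached beyond a 2-fold fall. That of Pgrmc1 reached just beyond it, to 0.498-fold of WT. Esr2 was limited by its counts of 0 to 23. None of 28 groups of values examined held a mouse far apart from the others by Dixon's test. With 5 mice per group that test has little power, so it does not show that no mouse stood apart. Adipocyte markers, for one, summed to 65.7 FPKM in TG4 and to 9.0 FPKM in TG2, the next HSD17B1TG mouse.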

Other observations

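Genes whose deviations over the 10 mice came close to those of Nr3c2 were looked up after its values had been seen. Among the nearest were the estrogen-regulated small GTPase Rerg (root mean square difference 0.296 on the log2 scale), the natriuretic peptide receptor Npr1 (0.369), Stxbp6 (0.400) and the interleukin 1 receptor kinase Irak2 (0.407), against a median of 1.14 over 14356 genes compared. Since they were chosen by their pattern over these mice, their own differences between the genotypes are set by that choice.

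Markers of other cell types that a uterus sample could hold were counted in the same way. Of 10 endothelial markers 0 were called in edgeR, with 1 higher and 4 lower at an unadjusted p under 0.05 (14.7% and 11.4% of all genes), 1 called higher and 2 lower by DESeq2 (5.42% and 3.87%) and 0 by limma voom, and the median log2 fold change was -0.65. Of 10 leucocyte markers the lysosomal membrane gene Laptm5 was called higher (log2 fold change 1.28, SE 0.28, adjusted p = 0.0312 in edgeR; lost without TG2, TG4, TG5, WT2, WT3 or WT5), against 2.16% of all genes, while 8 of 10 markers lay below 0 and the median of the list was -0.50. At an unadjusted p under 0.05 edgeR had 3 leucocyte markers lower (11.4% of all genes), 0 of them called, and DESeq2 called 2 lower (3.87%) and limma voom 0. Of the stromal markers Pdgfra had a log2 fold change of -1.99, Hoxa11 of -2.36 and Thy1 of -2.08, each called lower, and with 1 mouse left out the call held in 7, 4 and 2 of 10 fits. Pdgfra lost it without TG2, TG5 or WT5, Hoxa11 without TG2, TG4, TG5, WT2, WT3 or WT5, and Thy1 held it without TG1 or WT4, while limma voom did not call Thy1 (adjusted p = 0.0699). The median of the 10 stromal markers was -0.52 (-0.82 to -0.31 with 1 mouse left out), with 4 above 0. Of 6 adipocyte markers 1 passed the filter on low counts, with a log2 fold change of 1.98, or -0.45 without TG4 and 4.40 without WT2. No adipocyte marker was called, nor were any of the ovarian or oviduct markers tested, with 0 at an unadjusted p under 0.05 and 0 by DESeq2 or limma voom.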
